A study of Rattus norvegicus with 8 samples.

Results

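The X-linked cluster from miR-532 to miR-500 is a run of 5 microRNA (miRNA) hairpins, miR-532, miR-188, miR-362, miR-501 and miR-500, that lie close together on the rat X chromosome. Its members here are all rat miRNAs on the array whose name is a mature product of one of these hairpins, from either arm, an asterisk marking the minor arm under older naming. These were 10 of the 677 miRNAs on the array, measured by 22 of 1644 probes. The cluster was selected on earlier results of the same islet comparison, adult against P10, so the members' values and age differences are a description. Where a member's call in the fit over all miRNAs is named, it stands beside the share called among all and is no support for the difference. Of the 10 members, 5 passed the filter on low values (above background on at least 4 of 8 arrays), as did 238 of all 677 miRNAs.

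A miRNA is cut from a hairpin transcript into a short strand that guides an Argonaute protein to messenger RNAs, mostly through its seed, bases 2 to 8 from the 5′ end, and lowers their output. Hairpins of a cluster can be copied in a shared primary transcript and still differ in the amount of mature product, because cutting, choice of arm and decay act on each one. Related hairpins form a conserved cluster within the chloride transporter gene CLCN5 in mammals, and its members have been studied in tumours among other tissues.

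In RefSeq's table of the rat assembly GRCr8 all 5 hairpins lay on the plus strand of chromosome X, inside the bounds of Clcn5, the gene of an endosomal chloride and proton exchanger. The table does not give exons or introns. Mir532 was at chrX:17919185-17919263, Mir188 at chrX:17919585-17919664, Mir362 at chrX:17926485-17926549, Mir501 at chrX:17927189-17927272 and Mir500 at chrX:17930647-17930726. They spanned 11542 bases. Mir532 and Mir188 were 321 bases apart, and 6820 bases separated Mir188 from Mir362. RefSeq also places Mir3560 within this stretch, and its product is no member. All 10 members had a hairpin in RefSeq, which listed 9 mature arms. The array names miR-532-5p and miR-532-3p matched an arm by name, and the other array names (miR-188, miR-362*, miR-500 and the like) do not state the arm.

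The 9 arms are printed 5′ to 3′ as RefSeq gives them, with the seed in capitals, because the seed bears on which of them could share targets.
rno-miR-532-5p: cAUGCCUUgaguguaggacugu
rno-miR-532-3p: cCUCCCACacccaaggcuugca
rno-miR-188-5p: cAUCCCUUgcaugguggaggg
rno-miR-188-3p: cUCCCACAugcaggguuugc
rno-miR-362-3p: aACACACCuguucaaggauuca
rno-miR-501-5p: aAUCCUUUgucccuggguga
rno-miR-501-3p: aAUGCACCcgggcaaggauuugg
rno-miR-500-5p: aAUCCUUGcuaucugggugcuuag
rno-miR-500-3p: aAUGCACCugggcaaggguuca
Within the cluster only the arms miR-501-3p and miR-500-3p had the same seed, and both began with AAUGCACC. The arms miR-532-3p and miR-188-3p shared the run CUCCCACA at places offset by 1 base, so their seeds differ. The hairpin Mir532, whose arms were both measured above background, is shown with the 2 mature arms in capitals.
Mir532: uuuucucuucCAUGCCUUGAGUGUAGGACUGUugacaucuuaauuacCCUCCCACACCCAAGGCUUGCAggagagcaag

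Pancreatic islets, the endocrine cell clusters that hold the insulin-secreting beta cells, were taken from Sprague Dawley rats, and their total RNA was hybridised to 1-colour Agilent rat miRNA arrays. The P10 group had 4 arrays from rats 10 days old, of a sex the labels do not state, and the adult group had 4 arrays from males 3 months old. The source labels call the rats of both ages controls and name no further treatment or allele. Each array is labelled a biological replicate without the number of animals behind it, so errors describe the spread between arrays. The series title gives beta-cell maturation as the question.

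Array brightness differed within the P10 group, and this touches every member. Over the 278 probes that rose above background everywhere, the signal at the 75th percentile ran from 388 to 1690 on P10 arrays, replicates 1 and 2 being the dimmest, and from 1284 to 1677 on adult arrays. Levels below are log2 of the processed signal divided by that percentile, called the log2 scaled signal, with a floor of -5.51. A level of 0 is therefore the brightness of that percentile probe, and a difference of 1 is 2-fold. Age coincided with the column of the 1 slide that held all arrays, and these cannot be told apart. The adult arrays were all from males and the sex of the P10 rats is not stated. A difference by sex therefore cannot be told apart from age either. The islet miRNAs miR-375 (2.89 to 3.57 on P10 and 3.59 to 3.91 on adult arrays) and miR-7a (1.89 to 3.70 and 4.80 to 4.98) were above that percentile on all arrays, while miR-184, the remaining islet marker listed, was above the floor on 1 array. In whole islets, fewer cells of a type and less RNA per cell cannot be told apart.

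All 5 members above background had a lower mean in adult than in P10 islets, with differences (adult minus P10) from -1.14 to -0.45 on the log2 scaled signal and a median of -0.96. For all 238 miRNAs the median was -0.01, and 122 were negative. With limma fitted over all 238 and a Benjamini-Hochberg adjusted p under 0.05 as the call, 4 of the 5 members were called lower in adult islets, where 20.2% of all tested miRNAs were called lower, and 0 members were called higher, where 27.3% of all were. The same 4 members had no overlap between the ages, which held for 20.2% of all tested miRNAs in that direction. Since the contrast chose the cluster, nothing is read from these shares. The calls depended on the scaling: with no scaling or with spike-in scaling 0 of the 5 were called, and the split of all calls moved from 65 higher and 48 lower to 61 and 17 with no scaling and to 59 and 9 with spike-in scaling.

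**Figure D1:**
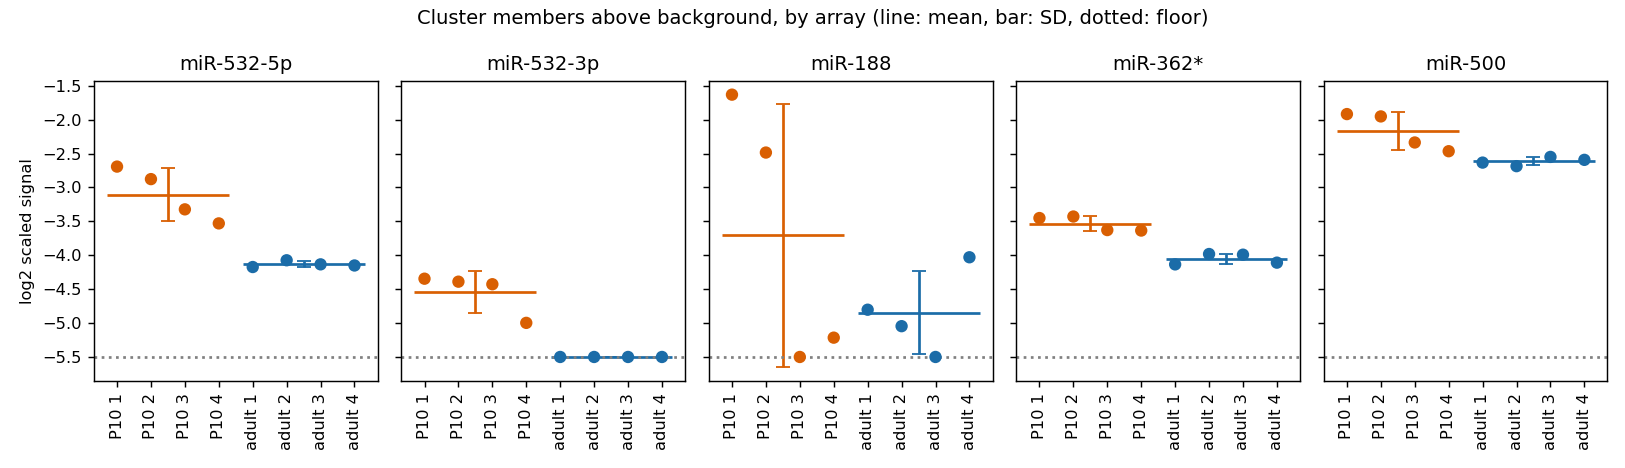
Log2 scaled signal (y axis) of the 5 members above background on each of 4 P10 (orange) and 4 adult (blue) arrays. Points are arrays, horizontal lines group means, bars SD and the dotted line the floor at -5.51. miR-532-5p, miR-532-3p, miR-362* and miR-500 show separate ages under this scaling, while miR-188 spreads over at least 3.88 among P10 arrays and overlaps the adult values. With spike-in scaling the means of miR-532-5p, miR-362* and miR-500 were higher in adult.

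The 5′ arm of the first hairpin, rno-miR-532-5p, had a log2 scaled signal of -2.69, -2.88, -3.32 and -3.53 in P10 islets (replicates 1 to 4, the order kept throughout) and of -4.18, -4.08, -4.14 and -4.15 in adult islets. Every P10 array was above every adult array, the nearest pair being 0.55 apart, and the adult arrays were nearly equal. The means were -3.11 ± 0.39 (SD, n = 4) in P10 and -4.14 ± 0.04 (SD, n = 4) in adult islets. The difference of -1.03 ± 0.19 (SE), or 2.04-fold lower in adult, was called under this scaling, and with spike-in scaling it turned to 0.020 and was not called. The probe was above background on all 8 arrays. A second probe for the same strand was dimmer, above background on 2 P10 and 1 adult array, and went the same way, by -0.69 with the floor and by -1.36 without it.

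Its partner from the other arm, rno-miR-532-3p, was close to the floor. Its log2 scaled signal was -4.35, -4.39, -4.43 and -5.0 on the P10 arrays and at the floor of -5.51 on all 4 adult arrays. The ages did not overlap, by 0.50, and P10 replicate 4 lay apart from the other P10 arrays. The probe was above background on 2 of 4 P10 arrays (replicates 3 and 4, the brighter arrays) and on 3 of 4 adult arrays. The P10 mean was -4.54 ± 0.31 (SD, n = 4), and the difference of -0.96 ± 0.16 (SE) was called. Because the floor sets the adult level, the size of this difference follows the floor: it was -1.13 with values below the floor kept, and -0.086, not called, with a floor 1 log2 unit higher. The other probe for miR-532-3p was never above background, with a processed signal from -0.91 to 6.97.

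Before scaling, the 2 strands of the hairpin did not separate the ages. The processed signal of miR-532-5p was 60.1, 59.9, 98.8 and 146 in P10 and 74.9, 83.1, 95.4 and 72.2 in adult islets. The signal of miR-532-3p was 19.1, 20.9, 45.9 and 52.8 in P10 and 27.9, 23.9, 35.9 and 25.5 in adult islets. For both strands, P10 replicates 1 and 2 were dimmer and P10 replicates 3 and 4 brighter than all adult arrays.

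**Figure D2:**
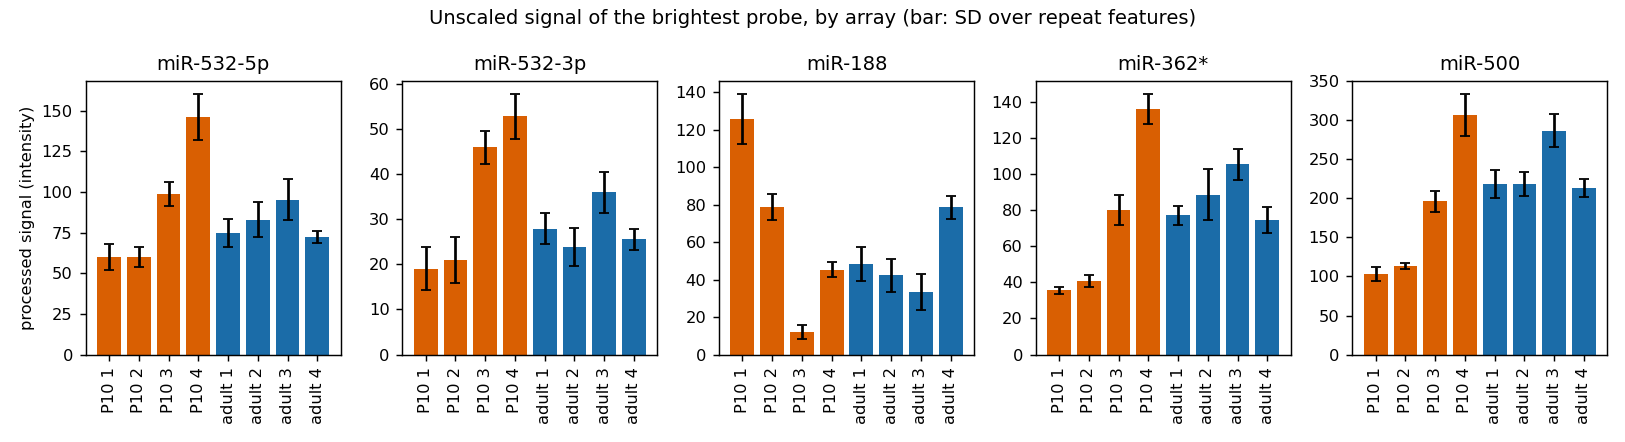
Processed signal (linear intensity, y axis from 0) of each member's brightest probe on 4 P10 (orange) and 4 adult (blue) arrays, before scaling, with bars for the SD over repeat features of the probe on that array. miR-532-5p, miR-532-3p, miR-362* and miR-500 are dim on P10 replicates 1 and 2 and brightest on P10 replicate 4, whereas miR-188 is brightest on P10 replicate 1 at 126 and dimmest on P10 replicate 3 at 12.0.

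The next hairpin gave rno-miR-188, whose levels spread more widely within each age than those of the other tested members. On the log2 scaled signal, P10 replicates 1 and 2 were above P10 replicates 3 and 4 for all 5 tested members, not only miR-188. The log2 scaled signal of miR-188 was -1.63 and -2.48 on P10 replicates 1 and 2, at the floor of -5.51 on replicate 3 and -5.22 on replicate 4. On the adult arrays it was -4.81, -5.05, -5.51 (the floor) and -4.03. P10 replicates 1 and 2 were above all adult arrays. With the floor, P10 replicates 3 and 4 were within the range of the adult values, so the ages overlapped. Without the floor, P10 replicate 3 was at -6.37, below the lowest adult array at -5.66. The P10 arrays then reached both above and below the adult range. The means were -3.71 ± 1.94 (SD, n = 4) in P10 and -4.85 ± 0.62 (SD, n = 4) in adult islets. The difference was -1.14 ± 0.89 (SE), and miR-188 was the 1 member of the 5 that was not called. It was -0.96 with the floor 1 log2 unit lower and -0.45 without P10 replicate 1.

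The spread of miR-188 within an age comes from the same values as the age contrast that chose the members, so it is a description. The age difference was -2.79 with P10 replicates 1 and 2 only and 0.51 with P10 replicates 3 and 4 only. The range over the 4 P10 arrays was at least 3.88, a bound because replicate 3 was not above background and lies at the floor, and the median range of the 238 miRNAs tested was 0.80. Over the adult arrays the range was at least 1.47, with adult replicate 3 at the floor, against a median of 0.25. The other members had P10 ranges of 0.84 (miR-532-5p), 0.65 (miR-532-3p), 0.55 (miR-500) and 0.21 (miR-362*), all smaller than that of miR-188, whose hairpin lies 321 bases from that of miR-532.

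The unscaled signal of miR-188 showed the same order of P10 arrays. It was 126 ± 13.3, 78.7 ± 6.87, 12.0 ± 3.70 and 45.4 ± 4.01 (SD over features of the probe) on P10 replicates 1 to 4, although replicates 1 and 2 were the dimmest arrays for other probes. On adult replicates 1 to 4 it was 48.4 ± 9.16, 42.3 ± 8.84, 33.2 ± 9.53 and 78.5 ± 6.02. The second miR-188 probe gave 119, 69.6, 7.90 and 35.1 in P10 and 39.2, 38.4, 31.3 and 70.9 in adult islets, with the arrays of each age in the same order. In the authors' deposited table the log2 value of miR-188 was 8.77, 7.73, 4.55 and 5.44 in P10 islets. In adult islets it was 5.89, 5.86, 5.45 and 6.67. P10 replicates 1 and 2 were again on top. P10 replicates 3 and 4 were there below every adult array, with replicate 3 the lowest.

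Acinar markers, from the digestive enzyme cells that surround islets, varied over the same arrays. P10 replicates 1 to 4 had log2 scaled signals of -0.60, -0.91, -4.77 and -5.51 (the floor) for the acinar miRNA miR-216a. Adult replicates 1 to 4 had -1.74, -2.40, -2.77 and -2.43, all above P10 replicates 3 and 4. For the whole acinar list (2 of 3 markers on the array, miR-216a and miR-217), the log2 of the summed scaled signal was -0.35, -0.66, -4.09 and -4.51 on P10 replicates 1 to 4 and from -2.36 to -1.33 on adult arrays. P10 replicates 1 and 2 were the highest arrays for both miR-188 and these markers, as they were for the other tested members. Other arrays were ordered differently. The lowest P10 array was replicate 3 for miR-188 and replicate 4 for miR-216a. The highest adult array was replicate 4 for miR-188 and replicate 1 for miR-216a. The part of these markers in the level of miR-188 was not tested. Markers of other cells also varied: the gut epithelium list summed to 0.14 to 3.75 on P10 and to -1.83 to -0.98 on adult arrays, the leukocyte list to -0.47 to 1.87 and 0.31 to 0.66, the erythroid list to -2.77 to -1.98 and -2.0 to -0.62, the mesenchymal list to 2.09 to 2.88 and 2.35 to 2.83, the adult minus P10 differences of its members being 0.93 (miR-143), 0.79 (miR-145), -1.75 (miR-199a-5p), -1.64 (miR-214) and -1.62 (miR-199a-3p), and the endothelial list to 1.23 to 2.23 and 1.55 to 1.73.

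**Figure D3:**
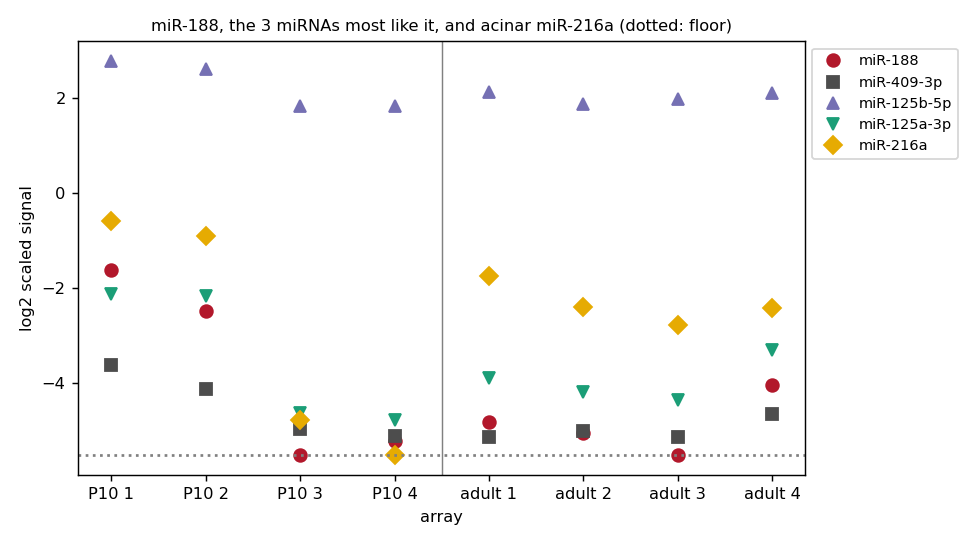
Log2 scaled signal (y axis) of miR-188, of the 3 tested miRNAs most correlated with it, and of the acinar miRNA miR-216a on 4 P10 and 4 adult arrays (x axis), with the floor dotted. Each point is 1 array. miR-188 is highest on P10 replicates 1 and 2, at -1.63 and -2.48, where miR-216a is also highest, and at the floor on P10 replicate 3 and adult replicate 3.

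From the third hairpin, rno-miR-362* was above background on all 8 arrays. Its log2 scaled signal was -3.45, -3.43, -3.63 and -3.64 in P10 and -4.14, -3.98, -3.99 and -4.11 in adult islets. The ages were 0.35 apart at their nearest, and both groups were tight. The means were -3.54 ± 0.11 (SD, n = 4) and -4.06 ± 0.08 (SD, n = 4), and the difference of -0.52 ± 0.10 (SE), or 1.43-fold lower in adult, was called. It turned to 0.44 with no scaling and to 0.53 with spike-in scaling, neither of which was called. A second probe gave -0.71. Before scaling, the P10 signals of 35.5, 40.8, 79.9 and 136 ran from below to above the adult signals of 77.0, 88.6, 105 and 74.3.

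The last hairpin gave rno-miR-500, whose log2 scaled signal was -1.91, -1.95, -2.33 and -2.46 in P10 and -2.63, -2.68, -2.55 and -2.59 in adult islets. The ages were apart by only 0.084, between P10 replicate 4 and adult replicate 3. The means were -2.17 ± 0.28 (SD, n = 4) and -2.61 ± 0.06 (SD, n = 4). The difference of -0.45 ± 0.15 (SE), or 1.36-fold lower in adult, was called, and it lost the call without P10 replicate 1 (-0.36), without P10 replicate 2 (-0.38) and without any 1 of the adult arrays (-0.47 to -0.42). With the slide row as a block it kept its size of -0.45 and lost the call. It turned to 0.021, 0.51, 0.60 and 0.93 with the percentile over all probes, no scaling, spike-in scaling and cyclic loess over all probes, none of them called. The second probe gave -0.41. The processed signal was 103, 114, 196 and 306 in P10 and 218, 218, 287 and 213 in adult islets.

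Of the called members, miR-500 had the narrowest gap between the ages, 0.084. The member not called, miR-188, had an adjusted p of 0.342 by limma, and its ages overlapped.

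The remaining 5 members, miR-188*, miR-362, miR-500*, miR-501 and miR-501*, were not well above background on any of the 8 arrays. Their probes had processed signals from -12.7 to 17.3, and these members have no measured age difference. The highest of these signals, 17.3, was from a miR-362 probe on P10 replicate 3, the 1 array on which the scanner software called miR-362 detected. The authors' deposited table gives miR-362 log2 values of 4.02, 3.27, 3.96 and 3.16 in P10 and 2.74, 2.90, 3.27 and 2.90 in adult islets. P10 replicate 4 was there below adult replicate 3, so the ages overlapped. Of the hairpins miR-188, miR-362 and miR-500, 1 product each was above background, of miR-532 both, and of miR-501 none at this depth of signal.

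Over the 8 arrays, Pearson correlations of the log2 scaled signal between the 4 members other than miR-188 ran from 0.90 to 0.97. The correlation of miR-188 was 0.82 with miR-500, 0.72 with miR-532-5p, 0.58 with miR-532-3p and 0.57 with miR-362*. These points share their arrays, their scaling and the age groups, so the values describe the patterns and no p is given.

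The tested miRNAs outside the cluster whose levels were most like each member, by Pearson correlation over the 8 arrays, differed from member to member. For miR-532-5p they were miR-181a (0.994), miR-181b (0.993) and miR-92a (0.992), which had larger age differences. For example, miR-181a was -0.21 ± 0.87 (SD, n = 4) in P10 and -2.60 ± 0.17 (SD, n = 4) in adult islets. For miR-532-3p they were miR-214 (0.982), miR-199a-3p (0.974) and miR-130b (0.972), and miR-199a-3p was 0.46, 0.59, 0.67 and 0.05 in P10 and -1.14, -1.0, -1.22 and -1.35 in adult islets. Both miR-214 and miR-199a-3p are on the list of mesenchymal markers, and their part in the level of miR-532-3p was not tested. The rest of that list was mixed: miR-199a-5p was also lower in adult islets (-1.75), while miR-143 (0.93) and miR-145 (0.79, not called) were higher.

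The miRNAs most like miR-362* were miR-20a (0.990), miR-17-5p (0.986) and miR-20b-5p (0.985), of the miR-17 seed family, and those most like miR-500 were miR-365 (0.990), miR-25 (0.985) and miR-672 (0.982). The miRNAs most like miR-188 were different ones: miR-409-3p (0.974), miR-125b-5p (0.970) and miR-125a-3p (0.970). miR-125a-3p was -2.12, -2.16, -4.62 and -4.78 in P10 and -3.89, -4.18, -4.35 and -3.30 in adult islets. P10 replicates 1 and 2 were above all adult arrays, as for miR-188, and P10 replicates 3 and 4 were below them. The age difference of miR-125a-3p was -0.51 ± 0.68 (SE).

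Outside the cluster, 4 array names came from hairpins with an arm that has a cluster arm's seed: miR-329, miR-329*, miR-511 and miR-511*. A name and its asterisk form are opposite arms of the same hairpin, so a pair cannot both carry the seed. The arms with the seed are miR-329-3p and miR-511-5p. These arms are printed with the seed in capitals to be set against miR-362-3p and miR-532-5p above.
rno-miR-329-3p: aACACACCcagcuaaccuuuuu
rno-miR-511-5p: cAUGCCUUuugcucugcacuc
Only miR-329 passed the filter. It was -1.97 to -1.32 in P10 and -1.72 to -1.54 in adult islets, and its difference of 0.01 ± 0.15 (SE) was not called (adjusted p of 0.967 by limma). The other 3 were never above background. The seeds of miR-362-3p and miR-329-3p are the same, and the array's miR-362* and miR-329, whose names state no arm, had differences of -0.52 and 0.01, a gap between them that was not tested.

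For the rest of the X chromosome, 92 other miRNAs on the array had all their hairpins on X, and 19 were tested. Of these, 7 were called higher and 5 lower in adult islets and 7 were not called. Their median difference was -0.15, with a range from -2.16 to 2.16, where the cluster's 5 ran from -1.14 to -0.45. The 3 largest called falls were miR-20b-5p, of the miR-106a cluster, at -2.16 ± 0.23 (SE, adjusted p of 0.000177 by limma, called in 27 of 28 alternatives), miR-450a at -2.02 ± 0.10 (SE, adjusted p of 7.87e-06, called in 25 of 28; -0.50 and not called under cyclic loess over all probes) and miR-672 at -1.93 ± 0.63 (SE, adjusted p of 0.0374, called in 13 of 27 alternatives). The 3 largest called rises were miR-384-5p at 2.16 ± 0.46 (SE, adjusted p of 0.00541; under cyclic loess over all probes -0.22 and not called), miR-325-3p at 1.76 ± 0.47 (SE, adjusted p of 0.0167, called in 25 of 27) and miR-325-5p at 1.07 ± 0.11 (SE, adjusted p of 0.000168; -0.18 and not called with normexp). The P10 level of miR-325-5p was at the floor on 3 of 4 arrays, so the floor sets its difference, which was 1.62 with the floor 1 log2 unit lower and 0.11, not called, with it 1 unit higher. miR-652, from a separate X-linked hairpin, rose by 0.28 ± 0.09 (SE, adjusted p of 0.0414, called in 13 of 28 alternatives), and its other strand miR-652* was at -0.19 and not called. miR-3560, whose hairpin RefSeq places between those of the cluster, was never above background.

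**Figure D4:**
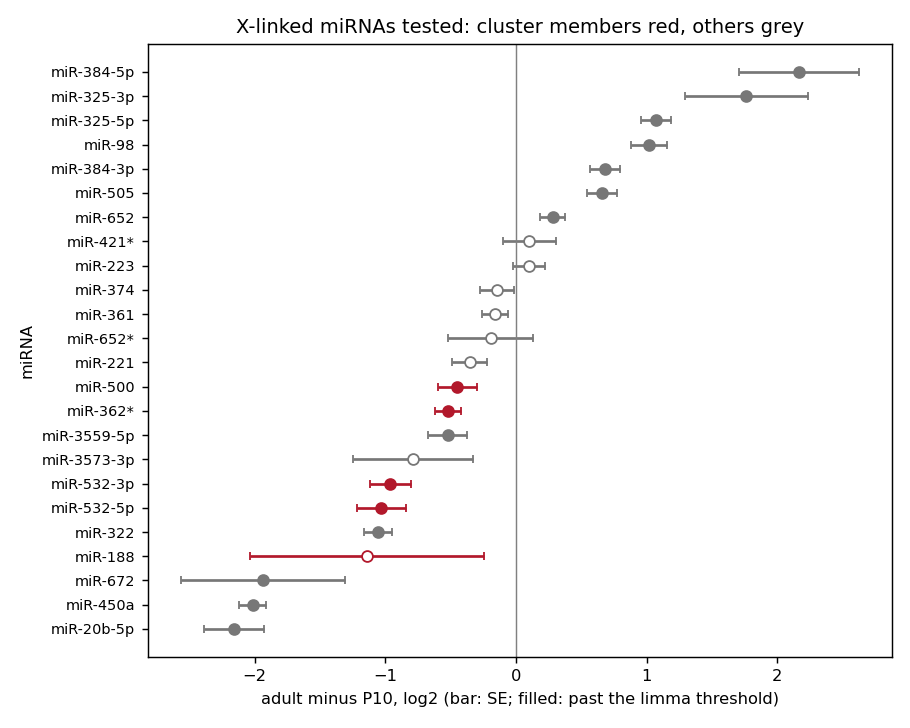
Adult minus P10 difference of the log2 scaled signal (x axis, points with SE bars) for the X-linked miRNAs tested (y axis), with the 5 cluster members in red and the 19 others in grey. Filled points passed limma's adjusted threshold of 0.05. The members lie between -1.14 and -0.45 and the others between -2.16 and 2.16, under the main scaling only; miR-500, miR-362* and miR-532-5p turn positive with spike-in scaling.

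The direction of the members was followed over 8 scalings. The median difference of all tested miRNAs itself moved, from -0.28 with normexp to 1.03 with spike-in scaling, so the members are also given relative to it. Relative to that median, the adult minus P10 difference was -1.88 to -0.66 for miR-532-5p, -1.25 to -0.56 for miR-532-3p, -1.19 to -0.60 for miR-188 and -0.51 to -0.20 for miR-362*. For miR-500 it ran from -0.54 to 0.77, positive with cyclic loess over all probes. Scalings that multiply a whole array by 1 factor give nearly the same relative value by construction, apart from values at the floor, so the 8 are not separate checks. Unadjusted for that median, the difference was negative in 8 of 8 scalings for miR-188 and miR-532-3p, 7 of 8 for miR-532-5p, 6 of 8 for miR-362* and 4 of 8 for miR-500.

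**Figure D5:**
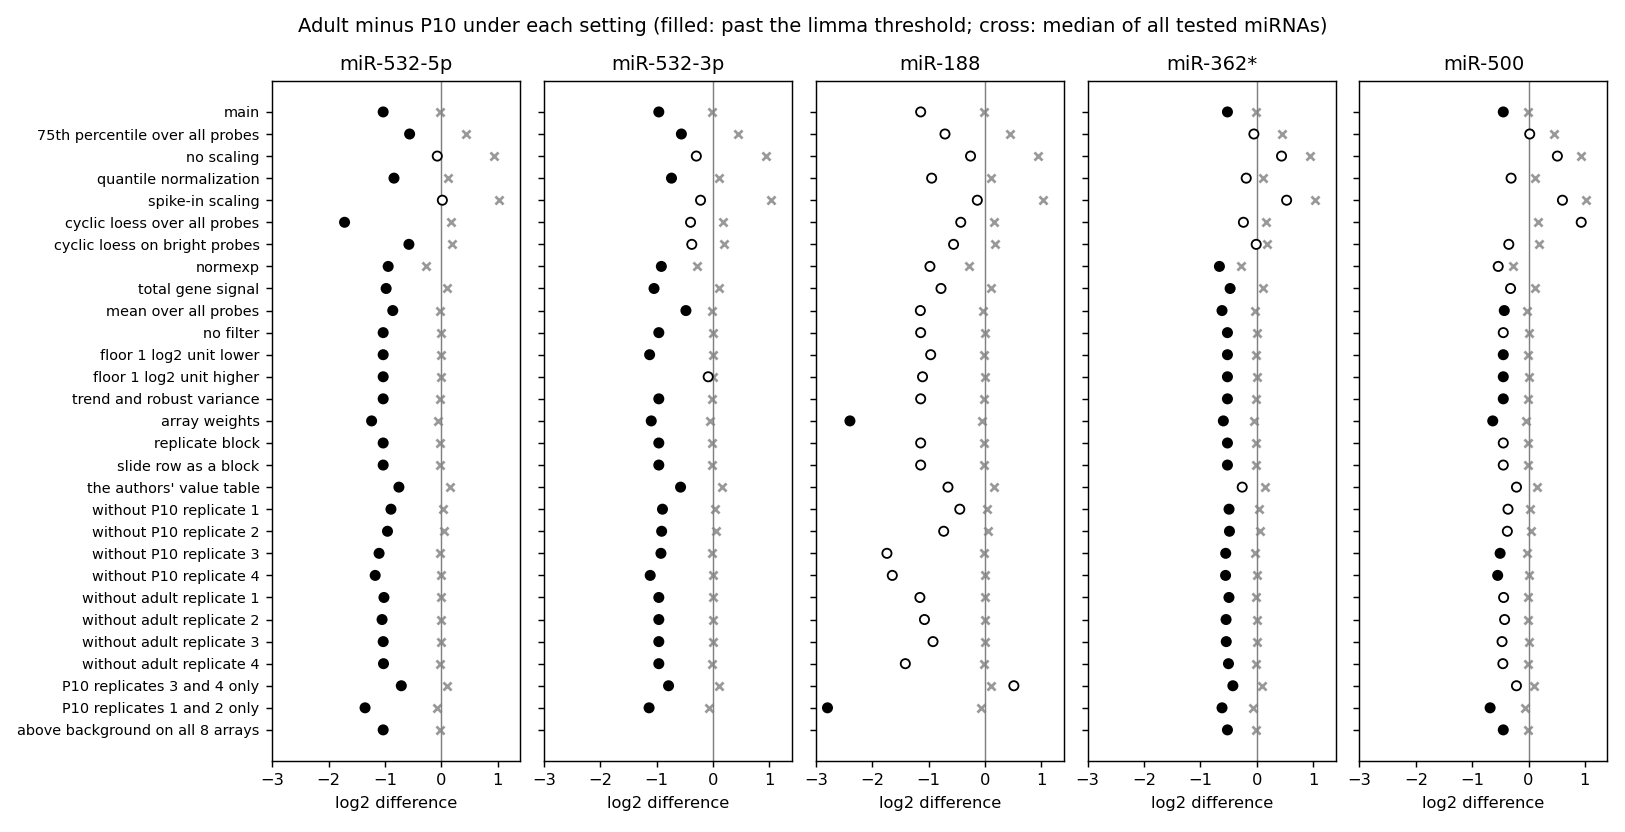
Adult minus P10 log2 difference (x axis) of each of the 5 members under the main processing and each alternative (y axis). Filled points passed limma's adjusted threshold of 0.05, open points did not, and grey crosses give the median of all tested miRNAs in that setting. miR-188 moves most with the P10 arrays used, from -2.79 with P10 replicates 1 and 2 only to 0.51 with replicates 3 and 4 only. Between the same settings the other members also shrink. miR-532-5p goes from -1.35 to -0.71, miR-532-3p from -1.14 to -0.79, miR-362* from -0.62 to -0.42 and miR-500 from -0.68 to -0.21. miR-500, miR-362* and miR-532-5p cross zero under spike-in scaling.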

How the data were processed

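Islet total RNA from 4 P10 and 4 adult samples was labelled with cyanine 3, per the labels. Per the file headers, Agilent Feature Extraction 10.7.3.1 made the deposited intensity values, which are already background-subtracted and come with flags for features above background. The authors' deposited value table holds log2 values for 311 miRNAs, made in a way that the sources used here do not give. Flagged outlier features (2.34% to 3.65% per array) were left out, features of a probe were averaged, and each array was divided by its 75th percentile over the 278 probes above background on all 8 arrays. Values were raised to a floor of -5.51 (the 1st percentile of probes above background, median over arrays) and log2 was taken. The brightest probe stood for a miRNA. Adult minus P10 was fitted over 238 miRNAs with limma 3.58.1 (R 4.3.3), tested on simulated data, with Benjamini-Hochberg adjustment. The number of arrays limits the precision.

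The members and lists were chosen with earlier results of these data known. Named miRNAs were all members, the 3 most correlated with each tested member, and all from a hairpin with an arm of a cluster seed. Also named were the 3 largest called differences each way on X, miR-652 and miR-660 where present, and miR-375, miR-7a and miR-216a. miR-660 was not among the miRNAs of this array. Names matched a RefSeq hairpin of GRCr8 for 602 of 677 miRNAs. No coordinates were taken from the array files, whose design is on rn4. The planned normexp alternative used median signals. Other alternatives changed the scaling, filter, floor, probe summary, signal column, variance model, blocks and arrays used. Replicate numbers did not pair arrays (correlations of deviations 0.18, -0.09, 0.48 and -0.23), so no block was used.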

Additional observations from a re-analysis of the deposited data

Results flagged for a closer look

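The log2 scaled signal of rno-miR-532-3p on P10 replicate 4 was -5.0, far from the other P10 arrays at -4.35 to -4.43 for the range of the group. Such a gap is met by chance in about 1 in 20 groups of this size. The check was made for every tested member within each age, so a flag among them can arise by chance. It was above background there, and P10 replicate 4 was the brightest array.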

How the results depend on the processing

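Of the 5 tested members, miR-532-5p kept its direction and its side of the threshold in 26 of 28 alternatives, miR-532-3p in 22 of 27, miR-362* in 21 of 28, miR-188 in 24 of 27 and miR-500 in 9 of 28. The cause of each change was not tested. The main count of 4 members past the threshold became 2 with the percentile over all probes, with quantile normalization and with the authors' deposited table, 1 with cyclic loess over all probes or on bright probes, and 0 with no scaling or spike-in scaling. For miR-532-5p the difference was -0.070 with no scaling and turned to 0.020 with spike-in scaling. For miR-532-3p it was -0.40 and -0.38 with cyclic loess over all and bright probes, -0.30 unscaled, -0.22 with spike-ins, and -0.086 with the floor 1 log2 unit higher. For miR-188 it was called at -2.39 with array weights and at -2.79 with P10 replicates 1 and 2 only, and turned to 0.51 with P10 replicates 3 and 4 only. For miR-362* it was -0.050 with the percentile over all probes, 0.44 with no scaling, -0.19 after quantile normalization, 0.53 with spike-ins, -0.24 and -0.0093 with cyclic loess over all and bright probes, and -0.26 in the authors' table.

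The difference of miR-500 was 0.021 with the percentile over all probes, 0.51 with no scaling, -0.31 after quantile normalization, 0.60 with spike-ins, 0.93 and -0.35 with cyclic loess over all and bright probes, -0.54 with normexp, -0.32 with the total gene signal, -0.45 with no filter, with the replicate block and with the slide row as a block, -0.21 in the authors' table and -0.21 with P10 replicates 3 and 4 only, and it was called in none of these. Leaving out 1 array at a time gave -0.55 to -0.36, with the call lost in 6 of 8. The replicate block changed no other member's call. miR-188 and miR-532-3p were near background on several arrays.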
